A study of Mus musculus with 9 samples.

Results

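Astrocyte genes were followed in mouse spinal cord during experimental autoimmune encephalomyelitis (EAE), which models multiple sclerosis through an immune attack on the cord, with or without the compound EHP-101. The list held 35 genes, 23 of them known to rise in reactive astrocytes and 12 known from resting, homeostatic astrocytes. A gene was kept if 3 or more of the 9 libraries held 10 or more of its counts, which left 34 genes (22 reactive and 12 homeostatic) of 27179 in the table. The one gene that did not pass was Slc10a6, a transporter of sulphated steroids, with at most 3 counts in any library. All 34 kept genes were among the 16749 genes tested.

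Whole spinal cord of C57BL/6 mice was sequenced, with 3 mice in each of 3 groups and 1 library per mouse. The EAE+EHP-101 mice had EAE and received EHP-101 orally at 20 mg/kg, and they are also called treated mice here. The EAE mice had the disease model without the compound, and the Control mice had neither. The sources used here do not give the antigen used to induce EAE, any vehicle, the ages or the day of sampling. EHP-101 goes by a code name. The design asks which transcripts change with the compound.

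Libraries held 30448507 to 32661741 counts. Levels below are normalised CPM (counts scaled to equal library size), and tests are the quasi-likelihood test of edgeR with Benjamini-Hochberg adjustment over all genes tested, where a gene with an adjusted p under 0.05 counts as risen or fallen. Fold changes are on the log2 scale with their standard error (SE). The p-values measure the spread between 3 mice per group of 1 experiment. All 9 astrocyte markers checked (Gfap, Aqp4, Aldh1l1, Slc1a2, Slc1a3, Aldoc, S100b, Sox9 and Fgfr3) had counts in every library. On the first principal component of all genes, the Control libraries scored -36.6 to -31.2 and the EAE libraries 27.5 to 41.3, while the treated libraries scored -17.4, 5.93 and 10.3. Treated replicate 1 thus stood nearest to the Controls, and counts without it are given below. In whole tissue, fewer cells of a type and less RNA per cell cannot be told apart.

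Astrocytes take up glutamate, buffer potassium and water, and supply neurons and vessels. When the tissue is injured or inflamed they enlarge, build up intermediate filaments and switch on secreted, surface and stress genes, a state called reactive. Published sets divide the induced genes into those shared by several injuries (pan-reactive), those of neuroinflammation (A1) and those of ischaemia (A2). Microglial signals (IL-1 alpha, TNF and C1q) and cytokines of the IL-6 family are known inducers. The IL-6 family acts through the receptor gp130, encoded by Il6st, and the transcription factor STAT3, while zinc and other metals induce metallothioneins through the factor MTF-1.

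The bases upstream of several members are shown because they hold the letters these factors are known to bind. They are the 250 bases before an annotated start, from RefSeq on GRCm38.p6, read in the direction of the gene. Windows were found for 30 of the 35 members. In the first set, capitals mark TTCNNNGAA, a spacing bound by STAT factors, which reads the same on both strands.
Tgm1: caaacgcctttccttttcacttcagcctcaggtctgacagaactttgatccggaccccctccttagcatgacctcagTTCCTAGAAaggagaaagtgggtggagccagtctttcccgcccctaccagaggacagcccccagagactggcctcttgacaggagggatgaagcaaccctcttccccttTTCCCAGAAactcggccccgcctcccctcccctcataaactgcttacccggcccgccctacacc
Steap4: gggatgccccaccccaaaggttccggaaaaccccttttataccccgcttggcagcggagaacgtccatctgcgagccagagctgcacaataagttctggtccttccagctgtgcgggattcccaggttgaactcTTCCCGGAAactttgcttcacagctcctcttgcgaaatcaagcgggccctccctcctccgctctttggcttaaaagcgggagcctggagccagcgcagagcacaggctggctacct
Emp1: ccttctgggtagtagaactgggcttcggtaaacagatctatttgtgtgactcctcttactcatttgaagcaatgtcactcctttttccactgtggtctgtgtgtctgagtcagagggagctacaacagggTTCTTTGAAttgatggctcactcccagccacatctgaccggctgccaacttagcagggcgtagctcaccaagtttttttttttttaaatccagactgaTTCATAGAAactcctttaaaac
Aldoc: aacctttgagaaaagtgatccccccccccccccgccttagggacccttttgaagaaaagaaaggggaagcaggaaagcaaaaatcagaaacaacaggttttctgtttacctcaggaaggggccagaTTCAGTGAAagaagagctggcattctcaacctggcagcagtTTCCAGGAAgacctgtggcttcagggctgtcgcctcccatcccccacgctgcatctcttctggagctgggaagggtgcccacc
The windows are chr14:55713493-55713742 (minus strand), chr5:7960222-7960471 (plus strand), chr6:135362681-135362930 (plus strand) and chr11:78323948-78324197 (plus strand). The match nearest to the start lies at -64 in Tgm1, -116 in Steap4, -22 in Emp1 and -83 in Aldoc. This motif stood in 7.02% of all 32841 promoter windows. Among the members it stood upstream of 4 of 21 reactive genes (Emp1, Sphk1, Steap4 and Tgm1) and 3 of 9 homeostatic genes (Aldoc, Ntsr2 and Slc1a3). A gene counted here if any of its windows matched (39 windows for 30 genes), so these counts are not on the same scale as the share of windows. Of these 7 genes, Tgm1, Steap4, Emp1 and the homeostatic Ntsr2 were higher in EAE, while Sphk1, Aldoc and Slc1a3 did not pass the test. The matches are a description of letters, not of binding.

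In the second set, capitals mark the core of the metal response element, TGCGCNC or TGCACNC on either strand, upstream of the neighbouring metallothionein genes Mt1 and Mt2.
Mt1: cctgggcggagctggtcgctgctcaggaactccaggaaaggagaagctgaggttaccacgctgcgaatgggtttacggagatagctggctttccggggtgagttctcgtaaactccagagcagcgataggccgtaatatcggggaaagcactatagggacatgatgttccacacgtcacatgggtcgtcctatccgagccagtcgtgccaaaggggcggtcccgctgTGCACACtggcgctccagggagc
Mt2: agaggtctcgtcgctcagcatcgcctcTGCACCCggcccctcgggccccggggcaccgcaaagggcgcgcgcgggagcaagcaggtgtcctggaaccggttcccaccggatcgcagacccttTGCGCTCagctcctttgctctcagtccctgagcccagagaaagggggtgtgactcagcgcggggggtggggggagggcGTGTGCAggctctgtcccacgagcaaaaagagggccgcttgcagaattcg
These windows are chr8:94178839-94179088 (plus strand) and chr8:94172368-94172617 (plus strand). The core stood once in the Mt1 window and 3 times in the Mt2 window, against 21.4% of all promoter windows with at least 1 match. Among the members it stood upstream of 6 of 21 reactive genes (Amigo2, Cd44, Mt1, Mt2, S1pr3 and Sphk1) and 2 of 9 homeostatic genes (Glul and Slc4a4), again counting a gene with any matching window.

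EAE was set against Control first, which asks what the disease did to the list. Of the 22 reactive members, 20 rose, against 20.2% of all genes tested (16.7% fell, and 37.0% passed in either direction). Their median log2 fold change was 1.39, against 0.01 for all genes tested. The 20 genes did not overlap between the 3 EAE and 3 Control libraries, which held for 25.6% of all genes in that direction. The cell adhesion gene Amigo2 and the sphingosine kinase gene Sphk1 did not pass. Of the 12 homeostatic members, 3 rose, namely Aqp4, Aldh1l1 and Ntsr2, and their median log2 fold change was 0.10. The EAE libraries lay above all Controls in 4 homeostatic members and below them in 2, the second holding for 21.1% of all genes. Without Control replicate 3 the count of 3 was 5, and without EAE replicate 2 or Control replicate 2 it was 2. All 10 pan-reactive members rose, as did 6 of the 7 A2 members tested and the 4 reactive members outside the published sets (Nes, Mt1, Mt2 and Id3). The only A1 member of the list, Amigo2, did not rise, and its EAE libraries lay below all Controls (log2 -0.14).

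EAE+EHP-101 was compared with EAE to ask what changed when the compound was given. Of the 22 reactive members, 14 fell, against 4.81% of all genes tested (5.24% in either direction). The fitted change was negative for all 22, with a median of -0.81 against 0.00 for all genes tested. In 19 of them the treated libraries lay below all EAE libraries, which held for 16.9% of all genes. One homeostatic member fell, Aldh1l1, and the homeostatic median was -0.13. The fitted change was negative for 11 of the 12, and in 5 of them the treated libraries lay below all EAE libraries. The 14 genes comprised 7 of 10 pan-reactive members, 4 of 7 A2 members and 3 of the 4 members outside the published sets. The A1 member Amigo2 did not pass. The number that fell depended on single mice: it was 7 without EAE replicate 2, 8 without treated replicate 1 and 7 without treated replicate 2. The 6 genes that fell with every library left out and under every alternative tried were Vim, Serpina3n, Lcn2, Ptx3, Emp1 and Tgm1.

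EAE+EHP-101 was compared with Control to ask how far treated mice stood from mice without disease. Of the 22 reactive members, 9 were higher in treated mice, against 9.96% of all genes tested, with a median log2 fold change of 0.56 against 0.01 for all genes. They were Vim, Nes, Serpina3n, Lcn2, Ptx3, S1pr3, Tgm1, Aspg and Id3. Of the 12 homeostatic members, Ntsr2 was higher and the transporter genes Slc1a2 and Slc4a4 were lower, where 9.82% of all genes tested were lower and 19.8% passed in either direction. The count of 9 was 15 without treated replicate 1, 4 without treated replicate 2 and 5 without treated replicate 3. The 4 genes that were higher with every library left out and under every alternative were Serpina3n, Lcn2, Ptx3 and Tgm1. The 3 comparisons share libraries, since each group serves in a pair of them.

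**Figure D1:**
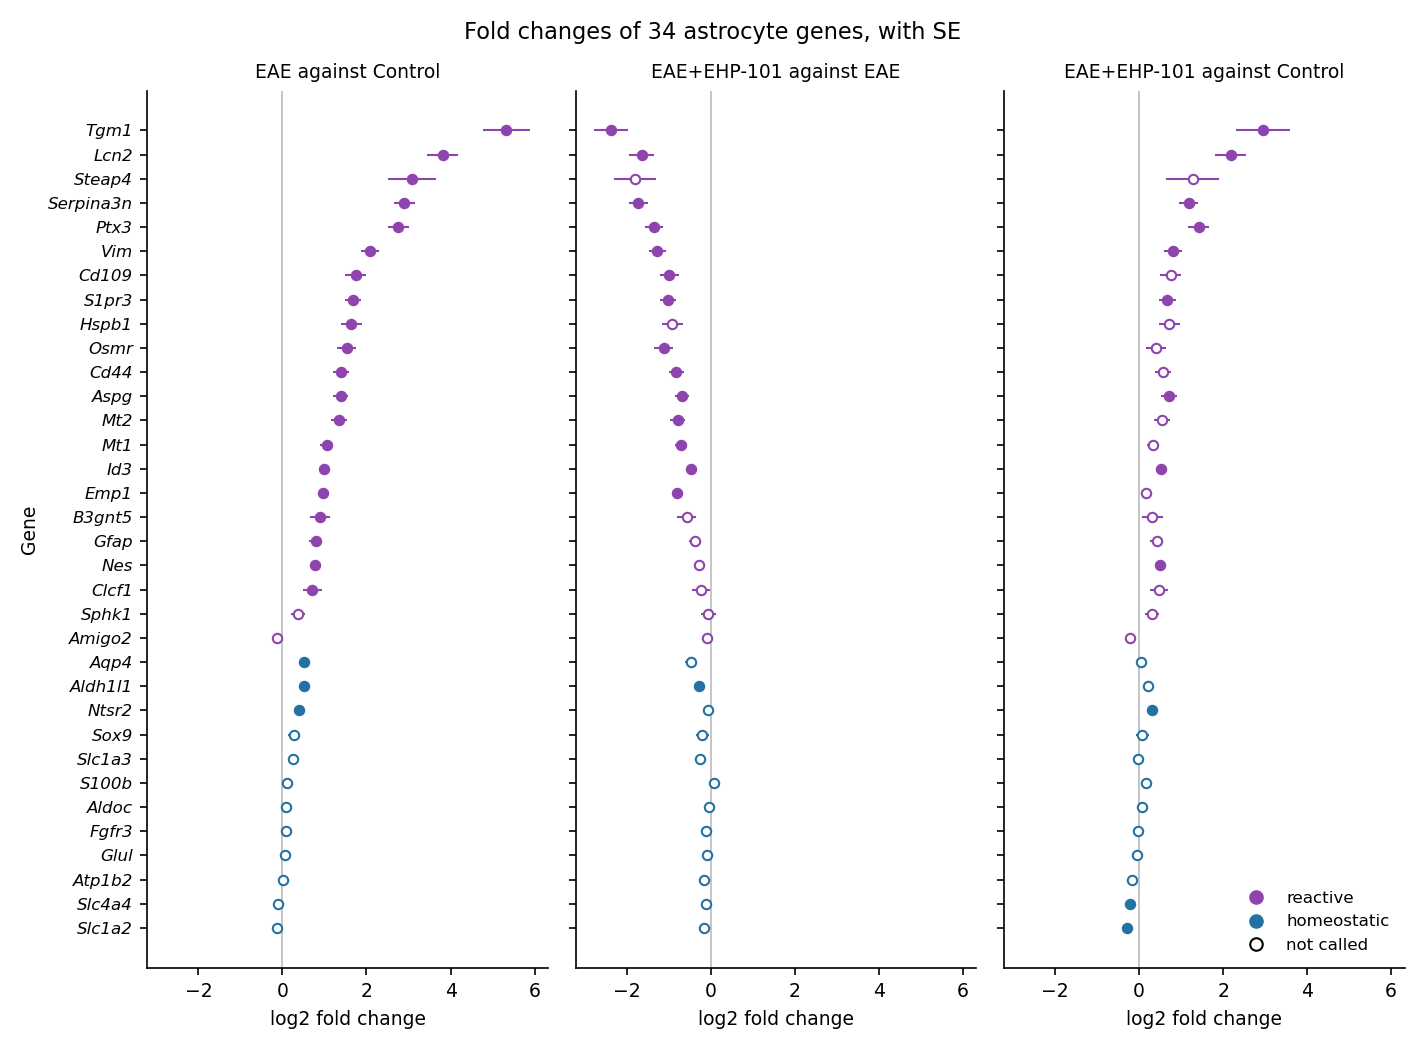
Log2 fold change (point) and SE (bar) of 34 astrocyte genes, ordered by class and by the change in EAE, with EAE over Control on the left, EAE+EHP-101 over EAE in the middle and EAE+EHP-101 over Control on the right. Filled points passed an adjusted p of 0.05 in the edgeR quasi-likelihood test; 20 reactive genes are filled on the positive side in the first panel and 14 on the negative side in the second.

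Intermediate filament genes came first in the comparison of classes, since they define the reactive state. Gfap, the main filament of astrocytes (chromosome 11, 102887336 to 102897200, minus strand), held 3190.2, 3583 and 3610.2 CPM in treated mice, 4311, 5306 and 3808 CPM in EAE mice, and 1986, 2641 and 3129.6 CPM in Control mice. No library overlapped between any pair of groups. Gfap rose in EAE (log2 0.79, SE 0.15, adjusted p = 0.00242). The difference between treated and EAE mice did not pass (log2 -0.37, SE 0.15, adjusted p = 0.252), nor did that between treated and Control mice (log2 0.42, SE 0.15, adjusted p = 0.0758). The second one passed without Control replicate 3 (log2 0.56, adjusted p = 0.0252) or with the DESeq2 Wald test (log2 0.41, adjusted p = 0.0288). Vim, the filament vimentin that many other cell types also make, held 91.4, 145 and 135 CPM in treated mice, 268, 372 and 254 CPM in EAE mice, and 51.3, 84.7 and 76.0 CPM in Control mice. All treated libraries lay between the other groups. Vim rose in EAE (log2 2.08, SE 0.22, adjusted p = 6.73e-05) and fell with treatment (log2 -1.27, SE 0.21, adjusted p = 0.00564). It was higher in treated than in Control mice (log2 0.81, adjusted p = 0.0236), a call that ended without Control replicate 1 (adjusted p = 0.0694), treated replicate 2 (0.113) or treated replicate 3 (0.0867), or with a trend of library levels with gene length removed (0.0548). Nes, the filament nestin known from neural progenitors, rose in EAE (log2 0.78, SE 0.13, adjusted p = 0.00101), with 32.9, 43.6 and 36.0 CPM in treated mice, 45.7, 53.2 and 37.1 CPM in EAE mice, and 28.1, 25.4 and 25.9 CPM in Control mice. Its treated and EAE libraries overlapped. Nes was higher in treated than in Control mice (log2 0.50, SE 0.13, adjusted p = 0.0231), which ended without Control replicates 2 or 3 or treated replicates 2 or 3 (adjusted p 0.0536 to 0.115).

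The secreted products Serpina3n, Lcn2 and Ptx3 had larger fold changes than the filaments Gfap and Nes in each comparison, whereas Clcf1 had smaller ones in EAE and with treatment. Serpina3n, a secreted inhibitor of serine proteases, held 96.8, 156 and 222 CPM in treated mice, 546, 599.8 and 420.1 CPM in EAE mice, and 69.0, 67.2 and 73.9 CPM in Control mice. The 3 groups did not overlap. It rose 7.45-fold in EAE (log2 2.90, SE 0.25, adjusted p = 3.28e-05), fell with treatment (log2 -1.72, SE 0.23, adjusted p = 0.00249) and was higher in treated than in Control mice (log2 1.18, SE 0.23, adjusted p = 0.00899). Lcn2, which encodes the iron siderophore carrier lipocalin 2, held 7.13, 4.69 and 12.8 CPM in treated mice, 34.6, 20.2 and 21.9 CPM in EAE mice, and 2.07, 1.84 and 1.54 CPM in Control mice. Here too the groups did not overlap. It rose 14.1-fold in EAE (log2 3.81, SE 0.36, adjusted p = 3.88e-05) and fell with treatment (log2 -1.64, SE 0.30, adjusted p = 0.00910), while treated mice stood above Control (log2 2.18, SE 0.37, adjusted p = 0.00589).

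Ptx3, a secreted pattern recognition protein of the pentraxin family, held 2.05, 3.98 and 3.27 CPM in treated mice, 8.36, 8.75 and 6.52 CPM in EAE mice, and 1.15, 1.04 and 1.28 CPM in Control mice. Its groups did not overlap, with treated mice in between. It rose in EAE (log2 2.76, SE 0.24) and fell with treatment (log2 -1.35, SE 0.21). Clcf1, a cytokine that signals through gp130, averaged 1.59 ± 0.373 CPM in treated mice, 1.88 ± 0.0226 CPM in EAE mice and 1.14 ± 0.236 CPM in Control mice (SD, n = 3). Clcf1 rose in EAE (log2 0.71, SE 0.22, adjusted p = 0.0260), and this was the least stable call of the comparison. The call ended without Control replicates 2 or 3 or any single EAE library (adjusted p 0.0625 to 0.0875), and under 4 other settings (adjusted p 0.0501 to 0.189).

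**Figure D2:**
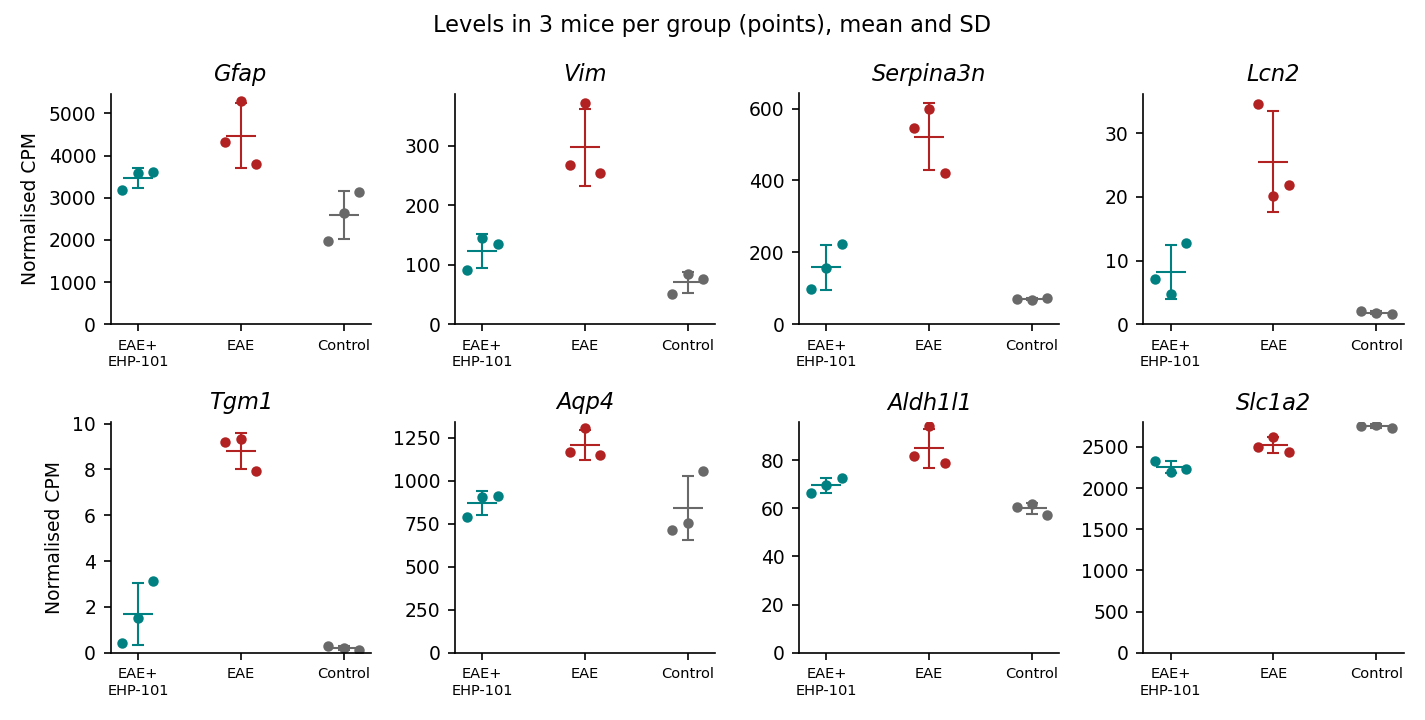
Normalised CPM of 8 astrocyte genes in each mouse (points), with the group mean (wide line) and SD (bar), for EAE+EHP-101, EAE and Control; every axis starts at 0. In Serpina3n the EAE mice lie at 420.1 to 599.8 CPM, above the treated mice at 96.8 to 222 CPM, while in Slc1a2 the treated mice lie lowest at 2194 to 2334 CPM.

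Among surface proteins, Osmr encodes the oncostatin M receptor subunit that pairs with gp130. It held 7.005, 10.5 and 14.1 CPM in treated mice, 21.0, 29.1 and 18.8 CPM in EAE mice, and 7.59, 7.50 and 8.85 CPM in Control mice. Treated replicate 1 lay below all Controls, and the other treated mice lay between Control and EAE. Osmr rose in EAE (log2 1.53, SE 0.23, adjusted p = 0.000480) and fell with treatment (log2 -1.12, SE 0.22, adjusted p = 0.0122), a call that ended without EAE replicate 2 (0.0638) or treated replicate 2 (0.0537). Emp1, a small membrane protein of the A2 set, held 8.83, 8.31 and 8.84 CPM in treated mice, 14.5, 18.004 and 12.8 CPM in EAE mice, and 7.62, 7.69 and 7.70 CPM in Control mice. It rose in EAE (log2 0.98, SE 0.12, adjusted p = 0.000172) and fell with treatment (log2 -0.80, SE 0.12, adjusted p = 0.00357). The treated and Control means differed by log2 0.18 (SE 0.12, adjusted p = 0.335), and those of Osmr by log2 0.40 (SE 0.23, adjusted p = 0.241; without treated replicate 1 log2 0.62, adjusted p = 0.0404).

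S1pr3, a receptor for sphingosine 1-phosphate, held 9.53, 12.2 and 17.96 CPM in treated mice, 29.7, 27.7 and 22.6 CPM in EAE mice, and 8.08, 9.11 and 7.67 CPM in Control mice. The groups did not overlap, and treated replicate 1 came close to the Controls. It rose in EAE (log2 1.68, SE 0.19) and fell with treatment (log2 -1.01, SE 0.19, adjusted p = 0.00986), a call at its limit without treated replicate 2 (adjusted p = 0.0509). S1pr3 was higher in treated than in Control mice (log2 0.68, adjusted p = 0.0360), which ended in 6 of 9 fits that left out a library (Control replicates 1, 2 and 3, EAE replicate 1 and treated replicates 2 and 3; adjusted p 0.0513 to 0.135) and under 3 other settings (0.0506 to 0.0680). Cd44, a receptor for the matrix sugar hyaluronan that leukocytes also carry, averaged 39.5 ± 7.06 CPM in treated mice, 69.8 ± 16.3 CPM in EAE mice and 26.6 ± 5.20 CPM in Control mice (SD, n = 3). It rose in EAE (log2 1.39, SE 0.19), and its fall with treatment (log2 -0.82, SE 0.18, adjusted p = 0.0249) ended in 5 of 9 such fits (without Control replicate 2, EAE replicates 1 or 2, or treated replicates 1 or 2; adjusted p 0.0526 to 0.128). Cd109, a membrane-anchored protein that binds TGF-beta, rose in EAE (log2 1.74, SE 0.24) and fell with treatment (log2 -0.98, SE 0.23, adjusted p = 0.0336). That fall ended in 6 of 9 fits (without Control replicate 2, EAE replicates 1 or 2, or any single treated library; adjusted p 0.0616 to 0.149) and with only the 2 groups compared in the fit (0.0512). The differences of Cd44 (log2 0.57, adjusted p = 0.0534) and Cd109 (log2 0.76, adjusted p = 0.0525) between treated and Control mice just missed, and each passed without Control replicate 3, EAE replicate 2, EAE replicate 3 or treated replicate 1 (adjusted p 0.0202 to 0.0476). With all libraries, Cd44 passed under 5 of 11 other settings and Cd109 under 6 (adjusted p 0.00987 to 0.0442).

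Steap4, a surface metalloreductase, held 0.320, 0.614 and 2.15 CPM in treated mice, 3.99, 2.76 and 4.12 CPM in EAE mice, and 0.558, 0.538 and 0.164 CPM in Control mice. It rose 8.53-fold in EAE (log2 3.09, SE 0.57, adjusted p = 0.00171). All treated libraries lay below all EAE libraries, but the treated mice differed widely among themselves and the change did not pass (log2 -1.81, SE 0.50, adjusted p = 0.0637). Without treated replicate 3 it did (log2 -2.95, adjusted p = 0.00321). With all libraries it also passed with the DESeq2 Wald test (adjusted p = 0.0163), with limma voom (0.0223) or without a filter (0.0352). The difference between treated and Control mice (log2 1.28, SE 0.63, adjusted p = 0.176) passed only without treated replicate 1 (log2 1.70, adjusted p = 0.0465). Amigo2 was lowest in treated mice and highest in Control mice. It held 9.56, 9.60 and 9.70 CPM in treated mice, 10.3, 10.1 and 10.2 CPM in EAE mice, and 10.9, 11.7 and 10.98 CPM in Control mice, with no overlap between groups. Neither its difference between EAE and Control (log2 -0.14, SE 0.08, adjusted p = 0.204) nor that between treated and Control mice (log2 -0.22, SE 0.08, adjusted p = 0.0755) passed. Its exons share 58 bases with those of Pced1b on the other strand, and the sources used here do not give the strand setting of the counting. Longer overlaps with genes on the other strand stood in Vim (649 bases), Emp1 (560), Glul (543) and Aldh1l1 (485 and 106). Those other genes had no matched symbol and averaged at most 15.6 counts.

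Among stress genes, the metallothioneins Mt1 and Mt2, small proteins that bind zinc and copper, moved as a pair of neighbours on chromosome 8 (94179089 to 94180327 and 94172618 to 94173567). Mt1 held 264, 291 and 322 CPM in treated mice, 449, 606 and 379.6 CPM in EAE mice, and 227, 211 and 258 CPM in Control mice. Mt2 held 181, 216 and 244 CPM in treated mice, 349.9, 490.2 and 270.0 CPM in EAE mice, and 121, 153 and 164 CPM in Control mice. In both genes the 3 groups did not overlap, and EAE replicate 2 was highest. Mt1 rose in EAE (log2 1.05, SE 0.15) and fell with treatment (log2 -0.71, SE 0.15, adjusted p = 0.0166), as did Mt2 (log2 1.34, SE 0.19, and log2 -0.79, SE 0.19, adjusted p = 0.0354). Without EAE replicate 2, treated replicate 1 or treated replicate 2 the falls did not pass (adjusted p 0.0505 to 0.0629 for Mt1 and 0.110 to 0.148 for Mt2), and for Mt2 this also held without Control replicate 2 (0.0681) or EAE replicate 1 (0.0812), and with only the 2 groups compared in the fit (0.0582). Hspb1, a small heat shock protein, rose in EAE (log2 1.64, SE 0.25, adjusted p = 0.000578), with means of 18.5 ± 4.19 CPM in treated mice, 34.8 ± 5.64 CPM in EAE mice and 11.2 ± 4.78 CPM in Control mice. Control replicate 1 stood apart at 16.7 CPM, against 9.24 and 7.73 CPM in Control replicates 2 and 3. The difference of Hspb1 between treated and EAE mice narrowly missed (log2 -0.91, SE 0.24, adjusted p = 0.0533) and passed without Control replicate 1 (adjusted p = 0.0120), Control replicate 3 (0.0323) or treated replicate 3 (0.0449). It also passed with limma voom (0.0269), without a filter (0.0257) or with only the 2 groups compared in the fit (0.0208). Between treated and Control mice it did not pass (log2 0.72, SE 0.25, adjusted p = 0.0655). That difference passed without Control replicate 1 (log2 1.11, adjusted p = 0.0116) or treated replicate 1 (0.0328), or without a filter (0.0491).

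Among enzymes, Tgm1 showed the largest fold change of the 34 genes in each comparison. It encodes a transglutaminase that cross-links proteins, best known from skin, and it is an A2 gene (chromosome 14, 55700009 to 55713492, minus strand). It held 0.448, 1.52 and 3.14 CPM in treated mice, 9.21, 9.32 and 7.92 CPM in EAE mice, and 0.296, 0.221 and 0.131 CPM in Control mice, where the Control values rest on 4 to 9 counts each. The 6 libraries with 10 or more of its counts were all EAE or treated, so Tgm1 passed the count rule through them alone. The groups did not overlap, and the treated mice spread over a wide range. Tgm1 rose 40.1-fold in EAE (log2 5.33, SE 0.56, adjusted p = 6.77e-05), fell with treatment (log2 -2.37, SE 0.41, adjusted p = 0.00715) and was higher in treated than in Control mice (log2 2.95, SE 0.64, adjusted p = 0.0120). Aspg, an asparaginase, averaged 6.87 ± 0.983 CPM in treated mice, 11.01 ± 2.25 CPM in EAE mice and 4.19 ± 0.679 CPM in Control mice (SD, n = 3). It rose in EAE (log2 1.39, SE 0.18), and its fall with treatment (log2 -0.68, SE 0.17, adjusted p = 0.0401) ended in 6 of 9 fits that left out a library (Control replicates 1 or 2, EAE replicates 1 or 2, treated replicates 1 or 2; adjusted p 0.0521 to 0.213) and under 5 other settings (adjusted p 0.0503 to 0.0804). Aspg was higher in treated than in Control mice (log2 0.71, SE 0.18, adjusted p = 0.0208), which ended without Control replicates 2 or 3 or treated replicates 2 or 3 (adjusted p 0.0552 to 0.0891). B3gnt5, which extends glycolipid sugar chains, rose in EAE (log2 0.89, SE 0.24, adjusted p = 0.0142), except without Control replicate 1 (0.0591) or EAE replicate 2 (0.0701). Sphk1, which makes sphingosine 1-phosphate, averaged 3.43 ± 0.257 CPM in treated mice, 3.57 ± 0.581 CPM in EAE mice and 2.76 ± 0.484 CPM in Control mice, and its libraries overlapped in every comparison.

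Id3, a helix-loop-helix protein that blocks other transcription factors, held 39.9, 46.0 and 43.1 CPM in treated mice, 54.0, 67.9 and 57.7 CPM in EAE mice, and 28.6, 27.9 and 33.4 CPM in Control mice. The 3 groups stood apart, with the treated mice in the middle. Id3 rose in EAE (log2 1.00, SE 0.10, adjusted p = 5.37e-05) and fell with treatment (log2 -0.48, SE 0.10, adjusted p = 0.0155), which ended without EAE replicate 2 (0.0834) or treated replicate 1 (0.0641). It was higher in treated than in Control mice (log2 0.52, SE 0.10, adjusted p = 0.00803), at its limit without treated replicate 2 (0.0508).

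**Figure D3:**
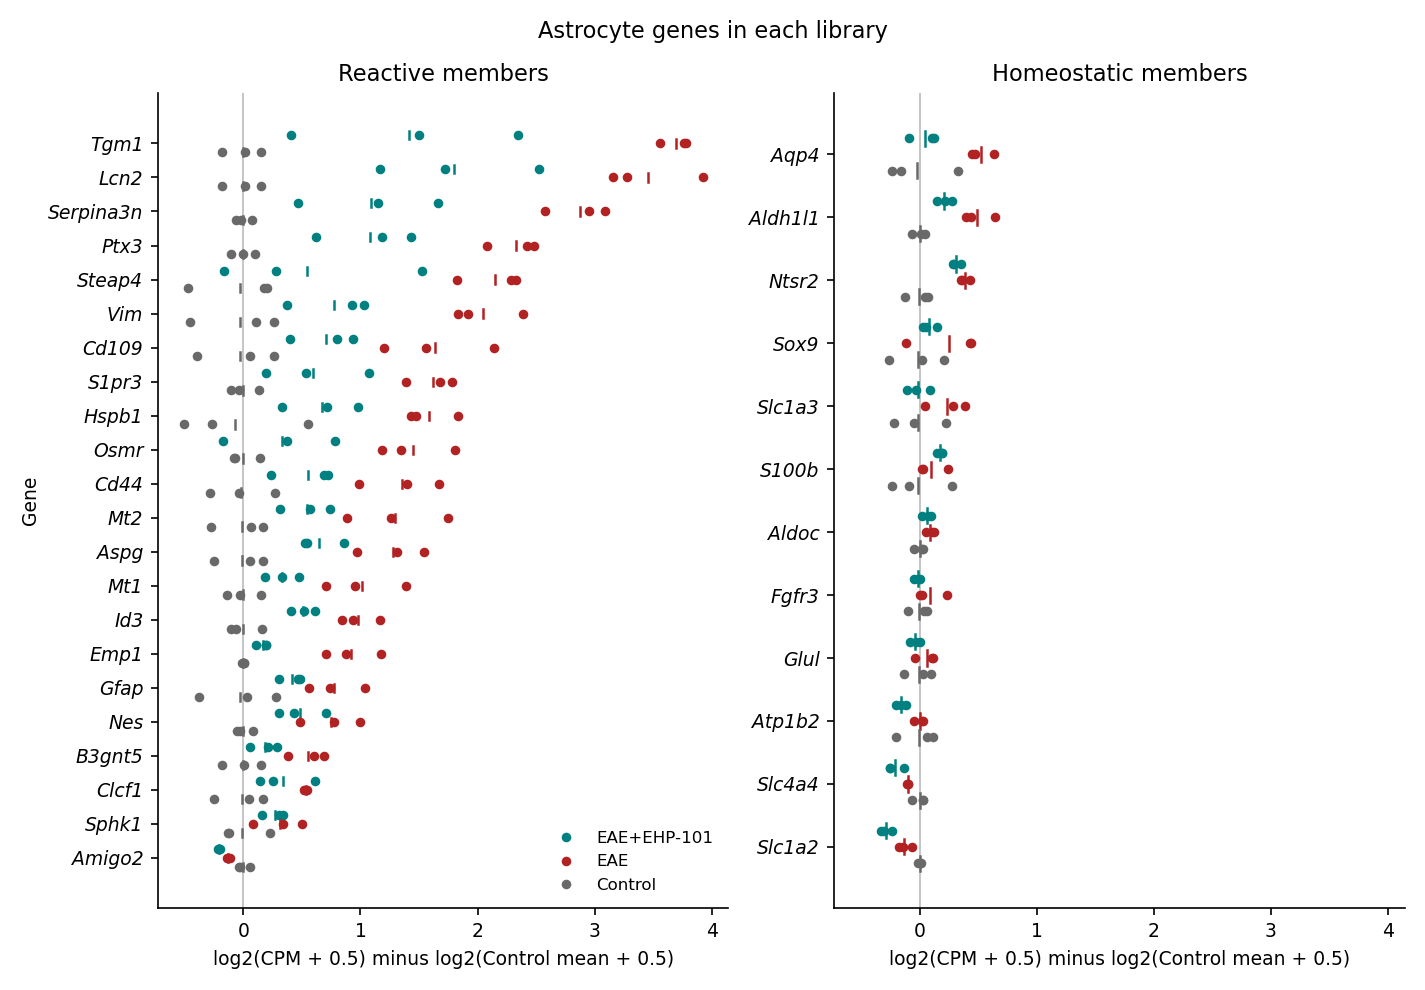
Level of each astrocyte gene in each library, as log2(CPM + 0.5) minus the log2 of the Control mean plus 0.5, for 22 reactive genes (left) and 12 homeostatic genes (right) on the same scale. Points are mice, short lines are group means; EAE mice reach values above 3 for Tgm1 and Lcn2, and homeostatic genes stay within 1 unit of Control.

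Levels per length overlapped between the 2 classes, while the median difference between groups was smaller in homeostatic members. In EAE against Control the median log2 fold change was 0.10 for homeostatic and 1.39 for reactive members. Single genes departed from this, since the reactive Amigo2 and Sphk1 changed less in EAE than the homeostatic Aqp4 and Aldh1l1. Per kilobase of exon, Aldoc (an aldolase of glycolysis) reached 1105, 1129 and 1058 CPM in treated, EAE and Control mice, and Sox9, a transcription factor of astrocytes, 8.12, 9.32 and 7.68 CPM per kilobase. The reactive members ran on the same scale and in EAE from 0.239 CPM per kilobase for B3gnt5 to 1099 CPM per kilobase for Gfap.

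Of the glutamate handling genes, only Slc1a2 passed in a comparison with all libraries. Slc1a2, the main glutamate transporter (chromosome 2, 102658683 to 102790784, plus strand), held 2334, 2194 and 2234 CPM in treated mice, 2499, 2626 and 2433 CPM in EAE mice, and 2758, 2771 and 2734 CPM in Control mice. The 3 groups did not overlap and the treated mice were lowest; all treated libraries lay below all Control libraries for 17.5% of all genes. Treated mice were lower than Control (log2 -0.29, SE 0.06, adjusted p = 0.00908), and the call ended without treated replicate 2 (adjusted p = 0.0546). The difference between EAE and Control did not pass (log2 -0.13, SE 0.06, adjusted p = 0.103), nor did that between treated and EAE mice (log2 -0.16, SE 0.06, adjusted p = 0.171). The first of these passed when either EAE replicate 2 (adjusted p = 0.0445) or Control replicate 3 (0.0472) was left out. With the DESeq2 Wald test both differences passed (adjusted p = 0.0159 and 0.0354). Slc1a3, the second glutamate transporter, averaged 178 ± 12.4 CPM in treated mice, 212 ± 25.2 CPM in EAE mice and 179 ± 28.3 CPM in Control mice (SD, n = 3), and Glul, which turns glutamate into glutamine, averaged 1317 ± 38.0, 1412 ± 81.4 and 1351 ± 109.7 CPM. Neither passed in any comparison, and their libraries overlapped in each; without Control replicate 3, Slc1a3 rose in EAE (log2 0.34, adjusted p = 0.0211). Slc1a2 has the longest exon sequence of the list, 12068 bases, and the levels of long genes moved with the group. To show this, the log2 level of each gene was taken relative to its own mean over the 9 libraries. Across genes, the Spearman correlation of this deviation with length was 0.254 to 0.431 in Control, -0.339 to -0.264 in EAE and -0.338 to -0.0241 in treated libraries. With that trend removed, Slc1a2 was higher in EAE than in Control (log2 0.23, adjusted p = 0.0275), and treated mice no longer differed from Control (log2 -0.03, adjusted p = 0.822). Treated mice were then lower than EAE mice (log2 -0.26, adjusted p = 0.0491).

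Water and ion genes gave a mixed picture. Aqp4, the water channel of astrocyte endfeet, held 792, 906 and 913 CPM in treated mice, 1167, 1308 and 1148 CPM in EAE mice, and 714, 752 and 1056 CPM in Control mice. EAE mice were highest, and treated and Control mice overlapped. Aqp4 rose in EAE (log2 0.52, SE 0.13, adjusted p = 0.00898), except without Control replicate 2 (0.0562) or EAE replicate 2 (0.05002). Treated mice lay below EAE without passing (log2 -0.47, SE 0.13, adjusted p = 0.0621), and without Control replicate 3 the difference passed (adjusted p = 0.00698). It also passed with the DESeq2 Wald test (0.00676), without a filter (0.0373) or with only the 2 groups compared in the fit (0.0156). Slc4a4, a sodium bicarbonate cotransporter, held 424, 391 and 389.6 CPM in treated mice, 434, 435 and 432 CPM in EAE mice, and 445, 475 and 476 CPM in Control mice, with no overlap between groups. It was lower in treated than in Control mice (log2 -0.21, SE 0.06, adjusted p = 0.0260). That call ended without Control replicate 2 (0.0549), treated replicate 2 (0.108) or treated replicate 3 (0.0971), with only the 2 groups compared in the fit (0.0553), with the replicate number as a block (0.0651) and with the length trend removed (log2 -0.04, adjusted p = 0.718). Atp1b2, a subunit of the sodium pump, averaged 1199.7 ± 37.9 CPM in treated mice, 1340.0 ± 38.3 CPM in EAE mice and 1338 ± 155 CPM in Control mice and passed in no comparison. Without Control replicate 3, treated mice were below Control in Atp1b2 (log2 -0.27, adjusted p = 0.0123).

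Of the metabolic genes, Aldh1l1, a folate enzyme used as an astrocyte marker, held 66.4, 69.8 and 72.5 CPM in treated mice, 81.6, 94.0 and 78.99 CPM in EAE mice, and 60.5, 61.9 and 57.4 CPM in Control mice. The groups did not overlap. Aldh1l1 rose in EAE (log2 0.50, SE 0.07, adjusted p = 0.000432). Its fall with treatment (log2 -0.29, SE 0.07, adjusted p = 0.0433) ended in 7 of 9 fits that left out a library, those that kept the call being without Control replicate 3 and without EAE replicate 3 (adjusted p 0.0628 to 0.237 where it ended), and under 4 other settings (0.0567 to 0.0657). Aldoc averaged 1881 ± 45.8 CPM in treated mice, 1921 ± 44.1 CPM in EAE mice and 1801 ± 54.0 CPM in Control mice (SD, n = 3) and passed in no comparison.

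Of the signalling genes, Ntsr2, a neurotensin receptor that marks astrocytes, held 174, 183 and 175 CPM in treated mice, 184, 192 and 183 CPM in EAE mice, and 147, 149.6 and 131 CPM in Control mice. Treated and EAE mice overlapped, touching at 183 CPM, and both lay above all Controls. Ntsr2 rose in EAE (log2 0.38, SE 0.06, adjusted p = 0.000830) and was higher in treated than in Control mice (log2 0.31, SE 0.06, adjusted p = 0.00907), except without treated replicate 2 (0.0594) or with the length trend removed (log2 0.19, adjusted p = 0.0832). S100b, a calcium-binding protein, averaged 1355 ± 20.0 CPM in treated mice, 1285 ± 113 CPM in EAE mice and 1199 ± 226 CPM in Control mice. It was the one homeostatic member with a treated mean above both other groups. S100b, Sox9 and the growth factor receptor gene Fgfr3 passed in no comparison with all libraries. S100b passed without Control replicate 3, both in EAE (log2 0.23, adjusted p = 0.0381) and in treated mice (log2 0.32, adjusted p = 0.0201) against Control, and Sox9 rose in EAE without EAE replicate 3 (log2 0.43, adjusted p = 0.0158).

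**Figure D4:**
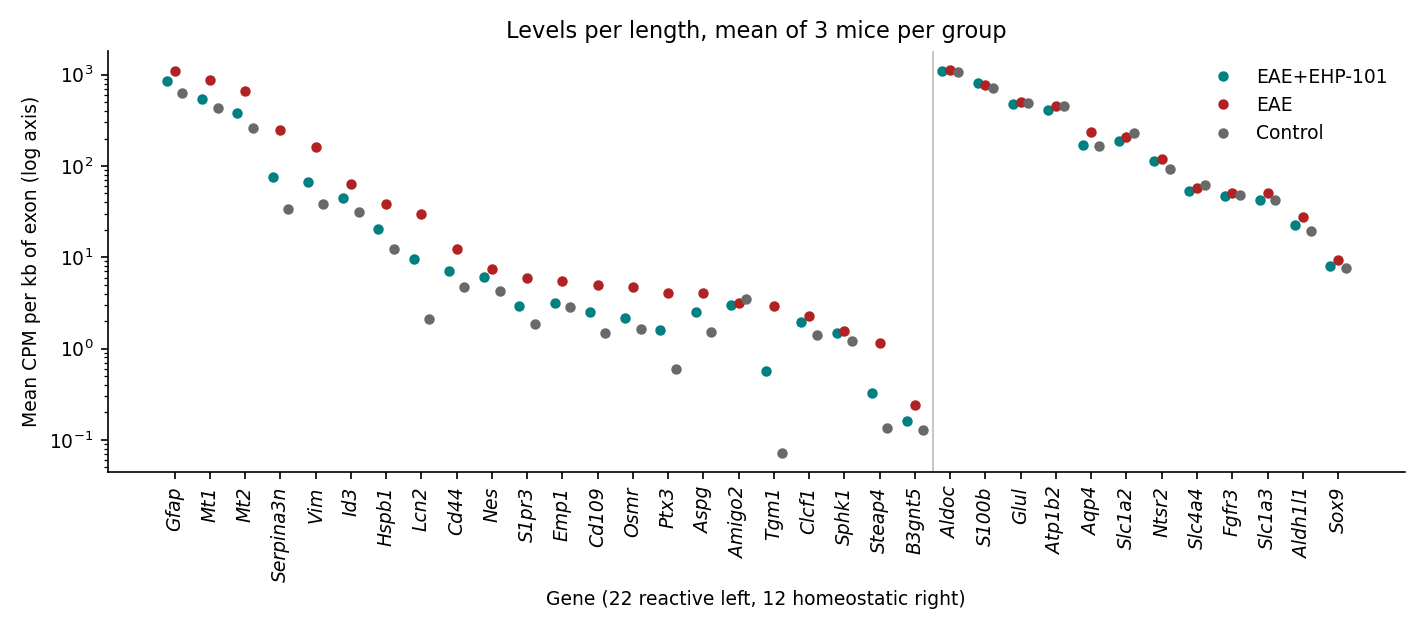
Mean CPM per kilobase of exon (log axis) of 22 reactive genes (left of the line) and 12 homeostatic genes (right), each ordered by its EAE level, in EAE+EHP-101, EAE and Control mice (3 per group). The points of a gene lie far apart for Tgm1, at 0.566, 2.93 and 0.0719 CPM per kilobase, and close together for Aldoc.

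The 2 classes were then set beside each other within each library, as the mean of log2(CPM + 0.5) over the members. The reactive mean was 3.89, 4.21 and 4.45 in treated mice, 5.07, 5.23 and 4.88 in EAE mice, and 3.56, 3.58 and 3.57 in Control mice. The homeostatic mean was 8.76, 8.77 and 8.79 in treated mice, 8.91, 9.0 and 8.87 in EAE mice, and 8.71, 8.77 and 8.78 in Control mice. The reactive minus homeostatic difference was therefore -4.87, -4.56 and -4.34 in treated mice, -3.85, -3.77 and -3.99 in EAE mice, and -5.15, -5.19 and -5.21 in Control mice. The groups did not overlap in this difference, and no test was made on it because the genes were chosen by class. When libraries were scaled to the mean of the homeostatic members instead, the median of all genes moved by -0.173 in EAE against Control and by 0.153 in EAE+EHP-101 against EAE. On that scale 19 reactive members rose and Amigo2 fell in EAE (log2 -0.31, adjusted p = 0.0134), and 13 fell with treatment.

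**Figure D5:**
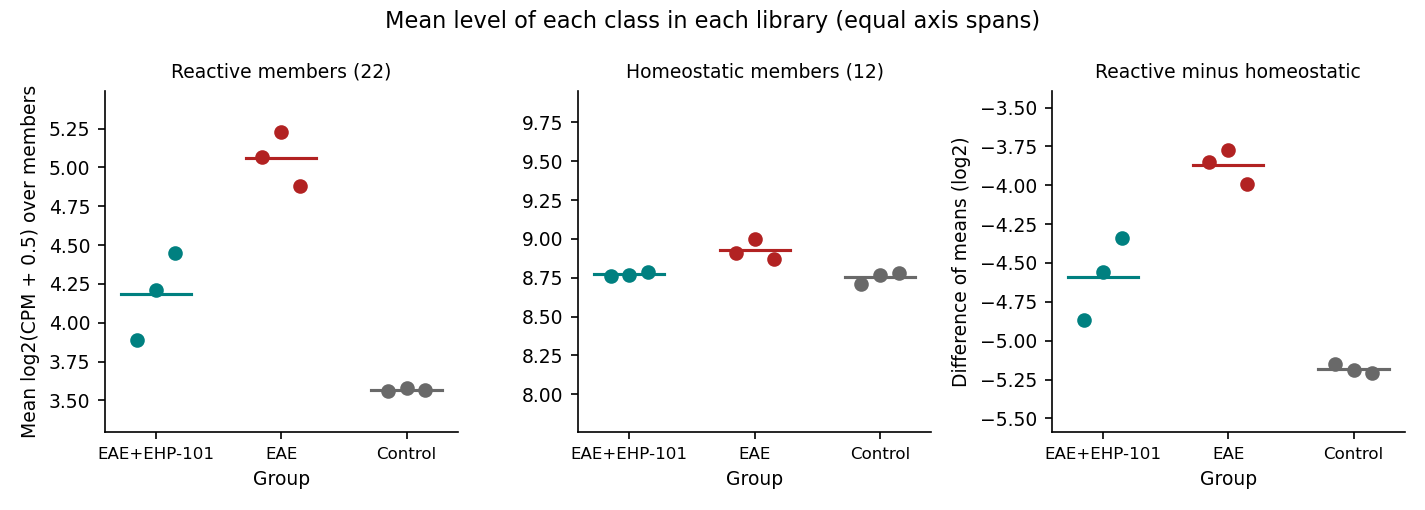
Mean log2(CPM + 0.5) over 22 reactive genes, over 12 homeostatic genes, and their difference, in each library of EAE+EHP-101, EAE and Control; lines are group means and the 3 axes span equal ranges. EAE mice reach 4.88 to 5.23 in the reactive panel, treated mice 3.89 to 4.45 and Control mice 3.56 to 3.58.

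Treated mice lay between EAE and Control for most reactive members, and they differed among themselves. The treated mean stood between the other 2 means in 21 of 22 reactive members, the exception being Amigo2, and in 5 of 12 homeostatic members. In 6 homeostatic members the treated mean was below both others. The share of all genes tested with a treated mean in these positions is not given here, so the counts only describe the members. Treated replicate 1 was the lowest of the treated mice in 19 of 22 reactive members and lay within the Control range in 6. Treated replicate 3 was the highest in 15, and neither it nor treated replicate 2 lay within the Control range in any. Replicate numbers carry no order, and what set treated replicate 1 apart was not tested.

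Other genes of the published sets, which are not members, showed the following counts. Of the other pan-reactive genes (Timp1, Cxcl10 and Cp), 3 of 3 rose in EAE and 2 of 3 fell with treatment. Timp1, an inhibitor of matrix proteases, averaged 4.51 ± 3.58 CPM in treated mice, 21.4 ± 0.628 CPM in EAE mice and 0.837 ± 0.419 CPM in Control mice (SD, n = 3), and its fall ended without treated replicate 2 (adjusted p = 0.0607). Of the other A1 genes, 10 of 11 rose in EAE, 6 of 11 fell with treatment and 8 of 11 were higher in treated than in Control mice. The count of 6 was 3 without EAE replicate 1 or EAE replicate 2, and the count of 8 was 5 without Control replicate 2 and 4 without treated replicate 2, without treated replicate 3 or with limma voom. Serping1, the C1 inhibitor, averaged 14.4 ± 7.61 CPM in treated mice, 50.0 ± 5.03 CPM in EAE mice and 5.51 ± 0.362 CPM in Control mice, and C3, the complement component often used to mark A1 astrocytes, 178 ± 54.7, 481 ± 115 and 109 ± 31.7 CPM. Both rose in EAE and fell with treatment, and both falls held with each library left out. Of the other A2 genes, 3 of 4 rose in EAE (S100a10, Tm4sf1 and Cd14) and 3 of 4 fell with treatment. The fall of the annexin partner gene S100a10 was weak (log2 -0.42, SE 0.11, adjusted p = 0.0493) and ended in 8 of 9 fits that left out a library, the exception being without EAE replicate 1 (adjusted p 0.0514 to 0.249 where it ended). The prostaglandin synthase gene Ptgs2 passed in no comparison.

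Of 20 other homeostatic astrocyte genes, 6 rose and 2 fell in EAE, and their median log2 fold change was 0.03. The 2 falls were 4 without Control replicate 1 and 6 without Control replicate 2. Apoe, a lipid carrier that microglia also make, and the chaperone gene Clu rose most among those named. Apoe averaged 1811 ± 337 CPM in treated mice, 4829 ± 1175 CPM in EAE mice and 1245 ± 114 CPM in Control mice (SD, n = 3), with log2 1.96 (SE 0.17) in EAE and -1.41 (SE 0.17, adjusted p = 0.00172) with treatment. Slco1c1, a thyroid hormone transporter that brain endothelium also carries, fell in EAE (log2 -0.63, SE 0.08, adjusted p = 0.000205) and was higher in treated than in EAE mice (log2 0.38, SE 0.08, adjusted p = 0.0195), where 0.430% of all genes were higher. The second call ended without EAE replicate 2 (0.0789), treated replicate 2 (0.0825) or treated replicate 3 (0.0679). Gja1, the main connexin of astrocytes, was lower in treated than in Control mice (235 ± 16.5 CPM against 311 ± 35.2 CPM; log2 -0.41, SE 0.08, adjusted p = 0.00997), and the call ended without treated replicate 2 (adjusted p = 0.0538).

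Signals known to induce reactive astrocytes were counted in the same way. Of 10 tested (Il6, Cntf and Ifng did not pass the filter on low counts), 8 rose in EAE and 1 fell, the endothelin gene Edn1 (log2 -0.87, SE 0.28, adjusted p = 0.0314), which ended without Control replicate 1, Control replicate 2 or EAE replicate 3. With treatment 8 fell, a count that was 5 without treated replicate 2. The complement gene C1qa averaged 114 ± 42.0 CPM in treated mice, 344 ± 41.1 CPM in EAE mice and 41.4 ± 4.12 CPM in Control mice (SD, n = 3), with log2 3.05 (SE 0.24) in EAE and -1.59 (SE 0.22, adjusted p = 0.00277) with treatment. Il1a, which encodes IL-1 alpha, averaged 2.01 ± 0.498, 4.72 ± 0.940 and 0.908 ± 0.122 CPM in treated, EAE and Control mice. Of 8 genes of the gp130 and STAT3 pathway, 4 rose in EAE (Il6st, Il6ra, Stat3 and Socs3) and 2 fell with treatment (Socs3 and Il6ra). Socs3, a target of STAT3 that damps its signal, averaged 2.30 ± 0.873 CPM in treated mice, 5.73 ± 0.599 CPM in EAE mice and 1.38 ± 0.187 CPM in Control mice, with log2 2.05 (SE 0.24) in EAE and -1.31 (SE 0.23, adjusted p = 0.00725) with treatment. Stat3 itself rose in EAE (log2 0.34, SE 0.06, adjusted p = 0.00119), and its difference between treated and EAE mice did not pass (log2 -0.16, SE 0.06, adjusted p = 0.184). The rise of Il6st ended without EAE replicate 2 (adjusted p = 0.0720).

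Markers of other cell types moved over the same groups, and several reactive members, such as Vim, Cd44 and Lcn2, are made by other cells as well. Microglia and macrophage markers summed to 447 to 691 CPM in treated mice, 1295 to 1768 CPM in EAE mice and 344 to 440 CPM in Control mice. Of these 10 markers, 9 rose in EAE and 9 fell with treatment. T cell markers summed to 0.832 to 5.67 CPM in treated mice, 10.1 to 12.4 CPM in EAE mice and 0.253 to 0.591 CPM in Control mice, with 6 of 6 higher in EAE and 3 of 6 lower with treatment. Treated replicate 1, the lowest treated mouse for most reactive members, was also the lowest treated mouse in both sums, but it was the highest in the sum of neutrophil markers. Pericyte and fibroblast markers summed to 85.4 to 117 CPM in treated mice, 189 to 204 CPM in EAE mice and 80.2 to 105 CPM in Control mice, with 5 of 7 higher in EAE and 5 of 7 lower with treatment. Those 5 were Col1a1, Col1a2, Col3a1, Dcn and Lum in both comparisons. The pericyte markers Pdgfrb and Rgs5 did not rise, with highest values of 17.5 and 15.6 CPM in EAE and 27.8 and 26.4 CPM in Control mice. Of the 7 markers, 1 fell in EAE. Endothelial markers summed to 131 to 151 CPM in treated mice, 68.7 to 117 CPM in EAE mice and 143 to 236 CPM in Control mice, with 7 of 7 lower in EAE. Neutrophil markers summed to 80.3, 43.1 and 48.3 CPM in treated mice, 37.1 to 64.5 CPM in EAE mice and 13.1 to 23.1 CPM in Control mice. Of 7 tested, 6 were higher in treated than in Control mice and 1 was higher in EAE than in Control mice. The count of 6 was 2 without Control replicate 1, 0 without Control replicate 2 and 3 without treated replicate 2, and the count of 1 was 5 without Control replicate 3 and 3 without EAE replicate 3 or treated replicate 1. The neutrophil markers differed in direction between treated and EAE mice. The fitted change was positive in 6 of 7, with 0 called higher and 1 called lower (0 without EAE replicate 1, EAE replicate 2 or treated replicate 2). Highest values in treated and EAE mice were 22.4 and 41.5 CPM for Csf3r, and 29.5 and 9.81 CPM for S100a9. Oligodendrocyte markers summed to 33945 to 35363 CPM in treated mice, 29239 to 33635 CPM in EAE mice and 27975 to 38089 CPM in Control mice, and neuron markers to 6396 to 6821, 6013 to 6953 and 6566 to 7486 CPM. Ependymal markers (40.4 to 53.0, 50.4 to 53.7 and 47.9 to 61.0 CPM) overlapped in every pair of groups. The sum of Schwann cell markers was higher in treated (169.8 to 177 CPM) and EAE mice (166 to 193 CPM) than in Control mice (132 to 153 CPM). Most of that sum was the 1 gene Pmp22, with highest values of 169, 185 and 149 CPM in treated, EAE and Control mice. Of the 5 Schwann cell markers, 2 were higher in EAE than in Control mice, and 1 without EAE replicate 2. Skeletal muscle markers stood at 31.1 CPM in Control replicate 1 and at 2.16 to 3.10 CPM in the other libraries. No marker was without counts in all libraries of a group. The part of these cells in the astrocyte gene results was not tested.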

How the data were processed

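RNA was extracted from spinal cord, selected by poly-A and made into strand-marking libraries that were sequenced as single reads of 50 bp, per the labels' protocols. The authors deposited raw read counts per gene under Entrez identifiers, not normalised, per the file headers. The submitters' processing notes list featureCounts 1.6.1, HISAT2 2.1.0, DESeq2 1.20.0, Trimmomatic 0.36 and the mm10 build, with no roles or order. The sources used here do not give the strand setting or how multiply mapped reads were handled.

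Symbols were matched for 25275 of 27179 identifiers through a RefSeq table of GRCm38.p6, and members carry the mm10 coordinates of the authors' table. In R 4.3.3, edgeR 4.0.16 filtered genes (filterByExpr, 16749 kept), scaled libraries by TMM and fitted 1 mean per group to all 9 libraries by quasi-likelihood. CPM use the scaled library sizes, and levels per kilobase divide by the deposited exon length. Benjamini-Hochberg adjustment ran over all genes tested. The SE of a log2 fold change is its absolute value divided by the square root of F. The fit was tested on simulated data. Alternatives were other scalings, DESeq2 1.42.0, limma 3.58.1 voom, other filters, only the groups compared, a replicate block, removal of the length trend (loess, span 0.5) and each library left out. The members and the lists were chosen with earlier results of these data known, so counts over them are descriptions. All 35 members are reported, with values in every library for the called member with the smallest p of each role in each comparison. Of other lists, counts and up to 4 genes among the smallest p are given. Values by library of further members, and Edn1, were chosen after their values were seen. Replicates differed beyond sampling noise in every pair, so each library counts as 1 sample. Libraries held 30448507 to 32661741 counts, and Tgm1 in Control rests on 4 to 9 of them.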

Additional observations from a re-analysis of the deposited data

How the results depend on the processing

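Among reactive members, the rise of 20 in EAE ranged from 18 to 20 with each library left out, the fall of 14 with treatment from 7 to 15, and the count of 9 higher in treated than in Control mice from 4 to 15. For homeostatic members the ranges were 2 to 5 higher and 0 to 1 lower in EAE, 0 to 2 lower with treatment, and 0 to 2 higher and 0 to 3 lower in treated against Control mice. For all genes they were 2160 to 3399 higher and 2211 to 3696 lower in EAE, 22 to 249 higher and 348 to 921 lower with treatment, and 237 to 1712 higher and 392 to 2065 lower in treated against Control mice. Scaling to homeostatic members gave 1 reactive member lower in EAE, and left 52.7% of called genes higher in EAE+EHP-101 against EAE, against 8.21% with TMM (25.3% against 54.8% in EAE against Control). Library totals gave 62.3% higher in EAE+EHP-101 against Control, against 50.4% with TMM, and 2 homeostatic members higher. The DESeq2 Wald test gave 1 homeostatic member lower in EAE, 3 lower with treatment and 137 genes higher with treatment. Homeostatic members lower with treatment numbered 0 with upper quartile factors, library totals or the replicate block, and 2 without a filter or with the length trend removed. With only the 2 groups compared, 169 genes were higher with treatment and 1 homeostatic member was lower in treated than in Control mice. Removing the length trend turned Slc1a2 in EAE to 0.23, left 1702 genes lower in EAE, and for treated against Control gave 762 genes higher, 793 lower and 0 homeostatic members in either direction. The cause was not tested. Same-numbered libraries share only a number (correlations of their deviations -0.243 to 0.191, and not every library correlated best with its own number). The replicate block left 5345, 722 and 2272 genes called in the 3 comparisons, against 6191, 877 and 3314 without it, with 44 genes higher with treatment, 1095 higher in treated than in Control mice and 1 homeostatic member lower there. Calls held in every fit for 18 of 20 reactive members in EAE, for 6 of 14 with treatment and for 4 of 9 in treated against Control mice. With 3 mice per group, calls near the threshold depend on single libraries.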
